A study of Mus musculus with 6 samples.

Results

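The genes described here build the machinery that attaches chromosomes to the spindle and times their separation: the centromere and kinetochore proteins, the spindle checkpoint, the chromosomal passenger complex, the mitotic kinases, the anaphase-promoting complex and a few genes that mark dividing cells. Members were taken by gene symbol (the Cenp, Bub, Cdca, Anapc, Ska, Aurk and Plk families, and a list of named partners). The symbols alone decided membership, but the families were picked with earlier results of these data known. Of 66 protein-coding mouse genes with such a symbol, 62 had a row of their own in the array table, out of 9490 genes with a row. Anapc1, Anapc10, Aurkc and Cdca4 were not analysed here.

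RNA came from cancer stem-like cells that had been cultured without serum, with EGF and FGF2, from prostates of TRAMP mice, and was measured on 6 single-colour arrays. TRAMP mice carry the SV40 early region under the probasin promoter, which is active in prostate epithelium, and develop intraepithelial neoplasia and later invasive and neuroendocrine tumours. There were 3 TNE samples, from mice with neuroendocrine tumours whose age the labels do not give, and 3 TPIN samples, from mice 10 to 11 weeks old with intraepithelial neoplasia. All 6 samples share the transgene and the culture medium, and separate mice or cultures within a group are not named by the labels. All values are log2 expression, differences are TNE minus TPIN on that scale with the moderated standard error (SE), and folds are their antilogs. Groups are given as mean ± SD with n = 3 each.

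As background, the histone variant CENP-A marks the centromere, and a constitutive network of CENP proteins binds it throughout the cell cycle. In mitosis the outer kinetochore assembles on this network and its NDC80 complex holds microtubules. Kinetochores without microtubules produce a checkpoint signal that blocks CDC20, the activator of the anaphase-promoting complex, until all chromosomes are attached. Many of these genes are transcribed in G2 and mitosis, so their RNA is commonly read as a sign of dividing cells. Arrays of bulk RNA cannot tell apart a larger share of dividing cells and more RNA of these genes in each cell.

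Centromere, kinetochore and checkpoint genes were higher in TNE cells as a group. Of the 62 members 41 rose, 1 fell and 20 did not pass the test (limma, Benjamini-Hochberg over all 9490 genes, threshold 0.05), where 10.3% of all genes tested rose and 10.2% fell. The folds of the 41 ranged from 2.00 to 12.2. The difference was positive for 59 members, and the median over the members was 1.97, against -0.02 over all genes tested. All 3 TNE arrays lay above all 3 TPIN arrays for 49 members and below them for 1, so that the groups were apart for 50 members. Over all genes 23.3% were apart with TNE higher, 20.5% with TNE lower and 43.8% either way. The mean over the 62 members was 9.92, 10.26 and 10.11 on TNE arrays 1 to 3 and 7.97, 9.08 and 7.94 on TPIN arrays 1 to 3, so TPIN array 2 stood between the other TPIN arrays and the TNE arrays.

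**Figure D1:**
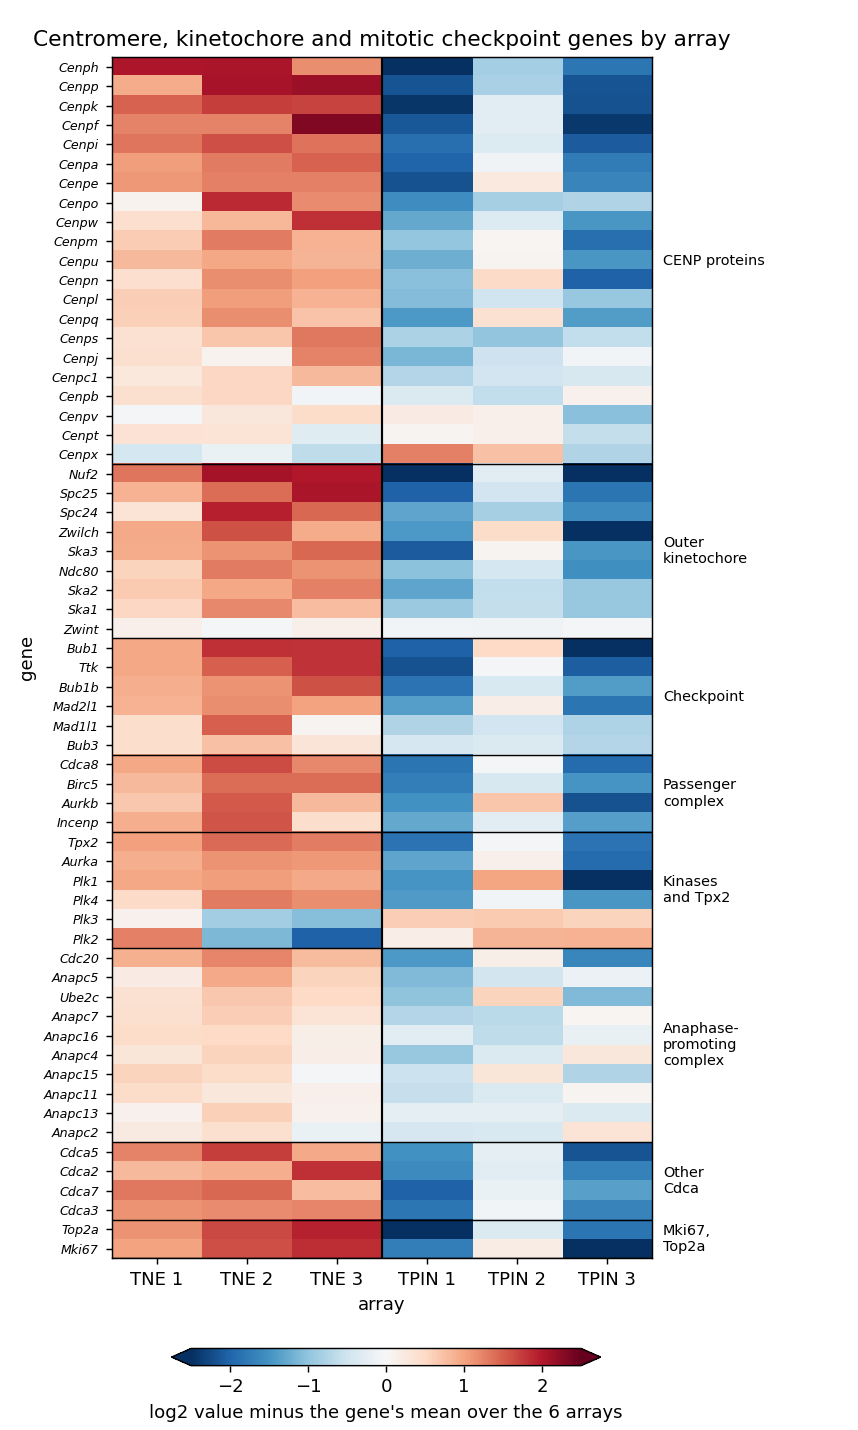
Log2 value of each of the 62 members (down the page, by role and then by difference) on each array (TNE left, TPIN right), as the departure from the gene's own mean over the 6 arrays. Most genes are above their mean on all TNE arrays, and TPIN array 2 is paler than TPIN arrays 1 and 3. Plk3 is lower on every TNE array than on every TPIN array. Plk2 and Cenpx have negative differences, but their groups overlap.

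Markers of several cell types were measured beside the members, and some of them moved with this comparison. Of 13 measured markers of fibroblasts and smooth muscle 10 fell in TNE and none rose, and their mean was 7.81 to 8.65 on TNE arrays and 11.42 to 11.71 on TPIN arrays. Of 12 neuroendocrine markers 5 had a row, and Chga, Chgb, Syp and Insm1, which mark that lineage, were not analysed here. Of the 5 measured, Uchl1, Syt1 and Snap25 rose, with Uchl1 at 11.04 ± 0.09 in TNE and 8.37 ± 0.74 in TPIN. Eno2 and Ncam1 did not pass, and Eno2 had a negative difference of -0.79 (SE 0.32, limma adjusted p = 0.11), with every TNE array below every TPIN array, while that of Ncam1 was 0.04 (SE 0.57). Only 3 of 13 epithelial markers had a row, Krt8, Krt18 and Acpp, and of these Acpp fell. Krt8 and Krt18 did not pass, with differences of -0.33 (SE 0.26) and -0.66 (SE 0.25). For all 3 every TNE array was below every TPIN array. Of the stem-like cell markers 2 of 6 rose, Cd24a and Kit, and of the endothelial markers 1 of 3, Cdh5. The others did not pass: the differences of Itga6 and Sox2 were both 2.42, and those of Cd44, Aldh1a1, Tek and Emcn were negative, from -1.61 to -0.21. Of 8 leukocyte markers only Cd68 and Lyz2 had a row, and neither passed. The part of these cell types in the results below was not tested. On TPIN array 2, where the members were high for that group, the fibroblast mean was 11.47, within the range of the other TPIN arrays. Array medians over all genes were 8.83 to 9.13 in TNE and 8.99 to 9.05 in TPIN.

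Many mitotic promoters carry a cell cycle genes homology region (CHR), TTTGAA, which in human and mouse cells is bound by the MuvB core of the DREAM complex and of the MYBL2 and FOXM1 complexes, often together with CCAAT boxes bound by NF-Y. Windows of 250 bases before to 50 after the gene start were taken from RefSeq (GRCm38.p6) for 55 of the 62 members and read on both strands. Within 100 bases before to 50 after the start, 20 of 55 member genes (36.4%) held TTTGAA. It was held there by 468 of 7474 tested genes with a window (6.3%) and by 9.2% of all 27025 genes with a window. Of the member genes that rose, 16 of 35 held it there, and of the other members, 4 of 20. The letters CCAAT occurred in the same stretch in 28 of 55 member genes (50.9%) and in 29.7% of tested genes. A match is a description of letters, not a site, and its part in the expression difference was not tested.

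The stretches from 100 bases before to 50 after the start are shown for 8 of the 20 members that hold TTTGAA there, picked by no fixed rule. All 8 also hold CCAAT in the stretch, whereas Ska3, Ndc80, Cdca5, Anapc7, Mki67 and Bub1b hold TTTGAA there without CCAAT. Nuf2 and Plk3, also shown, had the largest difference and the only call in the other direction and hold none of the letters searched. All stretches read 5′ to 3′ on the gene's strand, and capitals mark the CHR letters and the CCAAT box or their reverse complements. In Cdca8 the 2 overlap.
Cenpa (chr5:30666786-30666935, + strand): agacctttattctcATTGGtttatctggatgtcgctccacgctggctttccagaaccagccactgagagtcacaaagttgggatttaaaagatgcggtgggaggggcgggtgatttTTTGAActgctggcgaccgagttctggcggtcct
Cenpf (chr1:189688037-189688186, - strand): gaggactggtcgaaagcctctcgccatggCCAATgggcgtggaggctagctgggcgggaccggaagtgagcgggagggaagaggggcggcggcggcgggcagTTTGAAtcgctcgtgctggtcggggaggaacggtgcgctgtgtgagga
Spc25 (chr2:69206164-69206313, - strand): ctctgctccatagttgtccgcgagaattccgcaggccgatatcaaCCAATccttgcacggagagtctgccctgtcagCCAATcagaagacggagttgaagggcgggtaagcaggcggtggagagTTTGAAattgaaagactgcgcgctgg
Ttk (chr9:83834589-83834738, + strand): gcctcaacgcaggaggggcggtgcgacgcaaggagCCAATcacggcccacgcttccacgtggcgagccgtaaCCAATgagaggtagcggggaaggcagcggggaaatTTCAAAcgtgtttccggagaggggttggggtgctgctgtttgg
Cdca8 (chr4:124936868-124937017, - strand): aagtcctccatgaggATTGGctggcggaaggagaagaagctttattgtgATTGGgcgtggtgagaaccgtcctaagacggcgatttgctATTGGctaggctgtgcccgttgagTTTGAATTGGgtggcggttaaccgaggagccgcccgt
Aurka (chr2:172370521-172370670, - strand): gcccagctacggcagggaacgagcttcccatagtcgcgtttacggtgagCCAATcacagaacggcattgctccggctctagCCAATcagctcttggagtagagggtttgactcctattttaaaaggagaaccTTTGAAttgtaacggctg
Plk1 (chr7:122159335-122159484, + strand): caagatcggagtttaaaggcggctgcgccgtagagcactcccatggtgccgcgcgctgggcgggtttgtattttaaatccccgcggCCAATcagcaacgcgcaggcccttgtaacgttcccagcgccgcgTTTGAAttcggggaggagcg
Cdc20 (chr4:118437294-118437443, - strand): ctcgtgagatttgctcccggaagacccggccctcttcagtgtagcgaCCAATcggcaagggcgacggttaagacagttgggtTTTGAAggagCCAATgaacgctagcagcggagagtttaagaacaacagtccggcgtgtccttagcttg
Nuf2 (chr1:169531415-169531564, - strand): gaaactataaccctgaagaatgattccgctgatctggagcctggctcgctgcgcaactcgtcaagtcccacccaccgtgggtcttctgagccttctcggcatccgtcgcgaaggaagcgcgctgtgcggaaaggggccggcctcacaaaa
Plk3 (chr4:117133914-117134063, - strand): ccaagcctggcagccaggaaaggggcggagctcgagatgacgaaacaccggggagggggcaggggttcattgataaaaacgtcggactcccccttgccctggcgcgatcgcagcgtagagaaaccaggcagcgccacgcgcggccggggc
The whole windows of member genes held 26 matches to TTTGAA, with the same Bub3 site counted in overlapping windows. Of these matches 21 began in the stretch from 100 bases before to 50 after the start. No more than 40 bases before the start or within the 50 bases after it there were 18. The match began 17 bases into the transcript in Cenpa, at base 3 in Cenpf, 25 in Spc25, 33 in Aurka and 31 in Plk1, and 18 bases before the start in Cdc20.

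**Figure D2:**
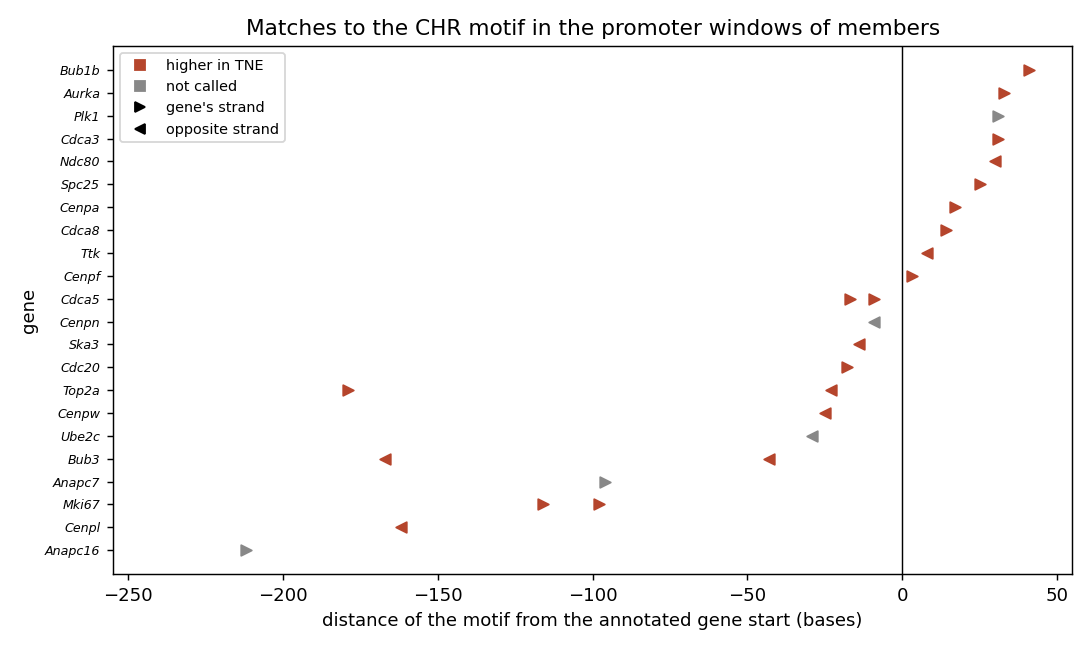
Position of each CHR match (x axis, bases from the annotated gene start) in the windows of the 22 members that hold one anywhere in 250 bases before to 50 after the start. Most triangles lie near the start at 0; red marks genes that rose in TNE, grey those that did not pass, and the direction of a triangle gives the strand.

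The centromere proteins were the largest group, and 14 of 21 Cenp genes rose in TNE while none fell. Cenpa, which encodes the histone variant that marks centromeres, was at 10.81, 11.05 and 11.24 on the TNE arrays and 7.76, 9.66 and 8.02 on the TPIN arrays. The groups did not overlap, although TPIN array 2 came within 1.15 of the lowest TNE array. The difference was 2.55 (SE 0.50, limma adjusted p = 0.0121, 5.87-fold), and its promoter is among those shown above.

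Cenph, Cenpi, Cenpk and Cenpm form a subcomplex of the constitutive network, and all 4 rose. Cenph was at 10.43, 10.46 and 9.58 in TNE and 5.86, 7.56 and 6.62 in TPIN (11.1-fold, limma adjusted p = 0.00365), the smallest adjusted p of the members. Cenpk was at 9.71, 9.97 and 9.93 in TNE and 5.82, 7.96 and 6.06 in TPIN (9.59-fold), and Cenpi and Cenpm had differences of 2.87 (SE 0.46) and 1.87 (SE 0.49). For all 4 the groups were apart, and the highest TPIN array was array 2. Cenpm lost its call without TNE array 2, TNE array 3 or TPIN array 1 (limma adjusted p = 0.0683 to 0.115), and the other 3 kept theirs without any 1 array.

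Of the subcomplex of Cenpo, Cenpp, Cenpq and Cenpu, which in human cells also recruits PLK1, 3 rose and Cenpq did not pass. Cenpp was at 8.30, 9.45 and 9.52 in TNE and 5.21, 6.56 and 5.23 in TPIN, a 10.7-fold difference (limma adjusted p = 0.00426). Cenpo and Cenpu had differences of 2.09 (SE 0.48) and 1.74 (SE 0.41). The call of Cenpo ended without TNE array 2, TNE array 3, TPIN array 1 or TPIN array 2 (limma adjusted p = 0.0533 to 0.0822), and that of Cenpu without TNE array 2, TNE array 3 or TPIN array 1 (limma adjusted p = 0.0561 to 0.0909). Cenpq was at 8.73, 9.30 and 8.85 in TNE and 6.71, 8.53 and 6.74 in TPIN (difference 1.63, SE 0.51, limma adjusted p = 0.0568): its groups did not overlap, but TPIN array 2 was only 0.21 below the lowest TNE array. Cenpq passed without TPIN array 2 (difference 2.24, limma adjusted p = 0.00747), and also with quantile normalization repeated (limma adjusted p = 0.0493) or the dimmest 25% of genes left out (limma adjusted p = 0.0466). Its difference was 1.32 without TPIN array 1 (limma adjusted p = 0.172) and 1.34 without TPIN array 3 (limma adjusted p = 0.119).

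The pair Cenpl and Cenpn, of which the Cenpn protein contacts CENP-A nucleosomes directly, gave 1 call. Cenpl was 3.23-fold higher, at 8.34 ± 0.22 in TNE and 6.65 ± 0.31 in TPIN, whereas Cenpn had 9.47, 10.21 and 10.08 in TNE and 8.01, 9.52 and 7.03 in TPIN and did not pass (limma adjusted p = 0.0738). The sizes were alike, 1.69 for Cenpl and 1.73 for Cenpn, but the SD of Cenpn in TPIN was 1.25 against 0.31 for Cenpl. Cenpn passed without TPIN array 2 (difference 2.40, limma adjusted p = 0.0159). With TPIN array 3 left out instead, its difference was 1.15 (limma adjusted p = 0.134). Cenpc1, which links CENP-A chromatin to the outer kinetochore, rose by 1.07 (SE 0.28, limma adjusted p = 0.0322) and was not called without TNE array 2, TNE array 3, TPIN array 1 or TPIN array 2 (limma adjusted p = 0.0784 to 0.108).

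The histone-fold proteins Cenpt, Cenpw, Cenps and Cenpx gave 2 calls. Cenpw and Cenps rose, with differences of 2.05 (SE 0.46) and 1.60 (SE 0.32), and Cenpw lost its call without TNE array 2 or TPIN array 1 (limma adjusted p = 0.0562 and 0.073). Cenpt, which binds the NDC80 complex, had 9.49, 9.48 and 8.83 in TNE and 9.19, 9.25 and 8.54 in TPIN, so the groups overlapped (limma adjusted p = 0.558). Cenpx, which with Cenps also acts in DNA repair, had 8.30, 8.57 and 8.11 in TNE and 9.99, 9.47 and 7.99 in TPIN. Its difference of -0.82 (SE 0.50, limma adjusted p = 0.253) was the only negative one among the Cenp genes, and TPIN arrays 1 and 2 were above and array 3 below all TNE arrays. Cenpx passed without TPIN array 3 (difference -1.40, limma adjusted p = 0.0227). With TPIN array 1 left out instead, its difference was -0.40 (limma adjusted p = 0.608).

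Of the Cenp genes that are not subunits of the constitutive network, the 2 large mitotic proteins rose. Cenpe, a kinetochore motor, was 5.30-fold higher, at 9.86, 10.03 and 10.03 in TNE and 6.58, 9.00 and 7.11 in TPIN, and Cenpf, a large protein of the outer corona, was 9.17-fold higher, at 10.15, 10.16 and 11.23 in TNE and 6.79, 8.64 and 6.51 in TPIN. Both had separate groups, and the call of Cenpe ended without TNE array 2, TNE array 3, TPIN array 1 or TPIN array 3 (limma adjusted p = 0.0611 to 0.0813). Cenpb, which binds a sequence in satellite DNA, Cenpv, which acts on microtubules and in cytokinesis, and Cenpj, a protein of centriole assembly, did not pass, with differences of 0.57 (SE 0.31), 0.47 (SE 0.39) and 1.15 (SE 0.41). The groups of Cenpj were apart, and those of Cenpb and Cenpv overlapped.

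**Figure D3:**
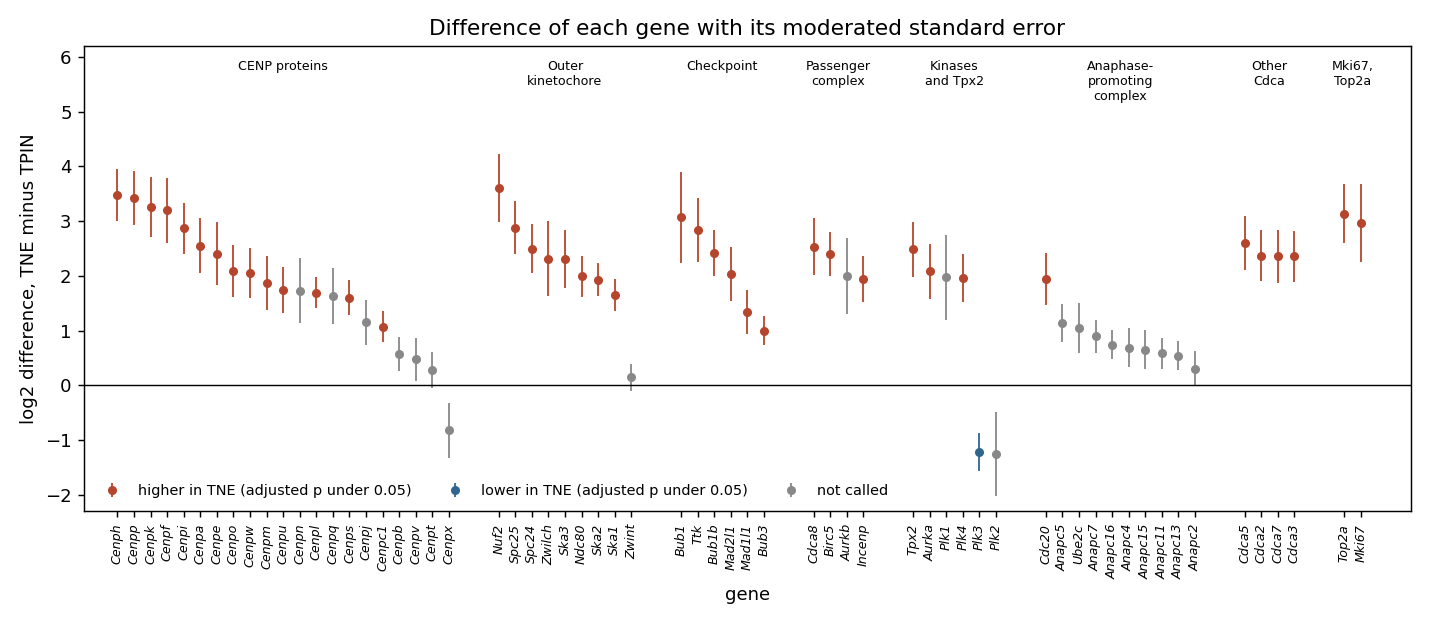
Log2 difference, TNE minus TPIN, of each member (points) with its moderated SE (bars), by role along the x axis. Red points rose, the blue point (Plk3) fell, and grey points did not pass; the Anapc subunits lie between 0.31 and 1.13, and most other groups reach above 2.

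In the outer kinetochore 8 of 9 genes rose and none fell. The 4 genes of the NDC80 complex, which binds microtubules, were all higher: Nuf2 by 3.61 (SE 0.62), Spc25 by 2.88 (SE 0.49), Spc24 by 2.49 (SE 0.44) and Ndc80 by 1.99 (SE 0.37). Nuf2 had the largest difference of all members, 12.2-fold, with 10.91, 11.64 and 11.58 in TNE and 6.95, 9.29 and 7.07 in TPIN (limma adjusted p = 0.00786). All 4 kept their calls without any 1 array.

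The Ska complex, which tracks microtubule ends and strengthens the grip of NDC80, rose in all 3 subunits. Ska2 was at 10.95, 11.26 and 11.56 in TNE and 8.97, 9.67 and 9.34 in TPIN (3.81-fold, limma adjusted p = 0.00609), with SDs of 0.30 in TNE and 0.35 in TPIN. Ska1 was 3.13-fold and Ska3 4.97-fold higher. Ska3 lost its call without TNE array 2, TNE array 3, TPIN array 1 or TPIN array 3 (limma adjusted p = 0.0523 to 0.0674), and Ska1 and Ska2 kept theirs without any 1 array.

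Zwilch and Zwint, both tied to the complex that brings dynein and checkpoint proteins to kinetochores, gave 1 call. Zwilch had 9.58, 10.23 and 9.55 in TNE and 7.20, 9.10 and 6.12 in TPIN and was just past the threshold (difference 2.31, SE 0.69, limma adjusted p = 0.0496), a call that ended without TNE array 1, TNE array 2, TNE array 3, TPIN array 1 or TPIN array 3 (limma adjusted p = 0.0736 to 0.146). Zwint had 11.46, 11.28 and 11.47 in TNE and 11.25, 11.25 and 11.28 in TPIN. Its arrays did not overlap, but the difference was 0.14 (SE 0.24, limma adjusted p = 0.681), the smallest in size of all members.

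All 6 checkpoint genes rose. Bub1, a kinase that recruits the checkpoint to kinetochores and marks centromeric histone H2A, had 10.38, 11.24 and 11.22 in TNE and 7.39, 9.92 and 6.33 in TPIN. The TPIN arrays were spread over 3.59, array 2 being high, and the difference of 3.07 had an SE of 0.82 (limma adjusted p = 0.0374). The call ended without TNE array 2, TNE array 3, TPIN array 1 or TPIN array 3 (limma adjusted p = 0.0701 to 0.121). Ttk, the MPS1 kinase that starts the signal, was at 9.23, 9.76 and 10.08 in TNE and 6.09, 8.24 and 6.22 in TPIN (7.17-fold, limma adjusted p = 0.0148) and was not called without TNE array 2 or TPIN array 1 (limma adjusted p = 0.052 and 0.0553).

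The subunits of the complex that inhibits CDC20 were higher by different amounts. Bub1b, which encodes BUBR1, was 5.32-fold higher (10.61 ± 0.35 in TNE, 8.20 ± 0.75 in TPIN, limma adjusted p = 0.00816) and kept its call without any 1 array. Mad2l1, which encodes MAD2, had 11.68, 11.98 and 11.82 in TNE and 9.43, 10.97 and 8.98 in TPIN (4.09-fold), a call that ended without TNE array 2, TNE array 3, TPIN array 1 or TPIN array 3 (limma adjusted p = 0.0518 to 0.0972). Bub3, which carries BUB1 and BUBR1 to kinetochores, was 2.00-fold higher, with 11.79, 12.09 and 11.66 in TNE and 10.93, 10.99 and 10.62 in TPIN, and its TPIN arrays were close together. Mad1l1, the kinetochore partner of MAD2, had a difference of 1.34 (SE 0.40, limma adjusted p = 0.0494). Bub3 lost its call without TNE array 1, TNE array 2, TNE array 3, TPIN array 1 or TPIN array 2 (limma adjusted p = 0.0563 to 0.147). Mad1l1 lost it without TNE array 1, TNE array 2, TPIN array 1, TPIN array 2 or TPIN array 3 (limma adjusted p = 0.0688 to 0.141).

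Of the 4 measured genes of the chromosomal passenger complex, which corrects wrong attachments and guides cytokinesis, 3 rose. Birc5 (survivin) was at 9.69, 10.29 and 10.29 in TNE and 7.16, 8.49 and 7.42 in TPIN (5.28-fold, limma adjusted p = 0.00736). Cdca8 (borealin) and the scaffold Incenp had differences of 2.53 (SE 0.52) and 1.94 (SE 0.42). Both lost their calls without TNE array 2 or TPIN array 1, with limma adjusted p = 0.0583 and 0.0584 for Cdca8 and 0.0701 and 0.0707 for Incenp. Aurkb, the kinase of the complex, had 10.76, 11.62 and 10.90 in TNE and 8.58, 10.79 and 7.92 in TPIN. Its difference of 2.00 (SE 0.69) was within the range of its partners' but did not pass (limma adjusted p = 0.0751), with TPIN array 2 just above the lowest TNE array. Aurkb passed without TPIN array 2 (difference 2.84, limma adjusted p = 0.00683). With TPIN array 3 left out instead, its difference was 1.41 (limma adjusted p = 0.162).

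The mitotic kinases went in both directions. Aurka, which matures centrosomes, its activator Tpx2 and Plk4, which starts centriole duplication, rose by 2.08 (SE 0.50), 2.49 (SE 0.50) and 1.96 (SE 0.45). Their calls ended without TNE array 2, TNE array 3 or TPIN array 1 (limma adjusted p = 0.0613 to 0.0926) for Aurka, without TNE array 2 or TPIN array 1 (limma adjusted p = 0.0541 and 0.0548) for Tpx2 and without TNE array 2, TNE array 3 or TPIN array 1 (limma adjusted p = 0.0558 to 0.0805) for Plk4. Plk1, the kinase of mitotic entry and kinetochore attachment, had 10.75, 10.82 and 10.72 in TNE and 8.31, 10.77 and 7.29 in TPIN. The TNE arrays were within 0.09 of each other and TPIN array 2 lay among them, and the difference of 1.97 had an SE of 0.78 and did not pass (limma adjusted p = 0.103). Without TPIN array 2 it did pass, at 2.96 (limma adjusted p = 0.00523). With TPIN array 3 left out instead, the difference was 1.23 (limma adjusted p = 0.22).

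Plk2 and Plk3, kinases of the same family that are known as stress-responsive genes, had negative differences. Plk3 had 8.85, 7.86 and 7.68 in TNE and 9.36, 9.40 and 9.29 in TPIN, the only member that fell (2.33-fold lower, limma adjusted p = 0.0475). The call ended without TNE array 2, TNE array 3, TPIN array 1, TPIN array 2 or TPIN array 3 (limma adjusted p = 0.067 to 0.158). Plk2 had 11.50, 9.12 and 8.22 in TNE and 10.41, 11.10 and 11.10 in TPIN, with TNE array 1 above all TPIN arrays and the other TNE arrays below them, and did not pass (difference -1.26, SE 0.76, limma adjusted p = 0.251). Plk2 passed without TNE array 1 (difference -2.20, limma adjusted p = 0.0132). With TNE array 3 left out instead, its difference was -0.56 (limma adjusted p = 0.575).

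The anaphase-promoting complex, the ubiquitin ligase that ends metaphase, gave a call for its activator and none for its subunits. Cdc20, the activator that the checkpoint holds back, rose: it was at 10.12, 10.46 and 10.03 in TNE and 7.79, 9.39 and 7.61 in TPIN (3.84-fold, limma adjusted p = 0.0283). That call ended without TNE array 2, TNE array 3, TPIN array 1 or TPIN array 3 (limma adjusted p = 0.0555 to 0.101). Ube2c, the E2 enzyme that works with the complex, had 10.05, 10.34 and 10.17 in TNE and 8.66, 10.22 and 8.56 in TPIN. It did not pass (limma adjusted p = 0.134), with TPIN array 2 among the TNE arrays. Ube2c did pass without TPIN array 2 (difference 1.57, limma adjusted p = 0.0209). With TPIN array 3 left out instead, its difference was 0.75 (limma adjusted p = 0.27). None of the 8 measured Anapc subunits passed in limma, 3 had an unadjusted p under 0.05, and all 8 differences were positive, with a median of 0.67. Anapc5, a subunit of the platform, had the largest, 1.13 (SE 0.35, limma adjusted p = 0.0557), with 11.44, 12.17 and 11.78 in TNE and 10.12, 10.77 and 11.09 in TPIN. Anapc5 passed without TPIN array 3 (difference 1.35, limma adjusted p = 0.0374), with quantile normalization repeated (difference 1.30, limma adjusted p = 0.0393) and with the dimmest 25% of genes left out (limma adjusted p = 0.0491). Anapc7 passed without TPIN array 3 (difference 1.14, limma adjusted p = 0.0225). Without TPIN array 1 the differences of Anapc5 and Anapc7 were 0.86 and 0.76 (limma adjusted p = 0.165 and 0.203). Anapc2, the cullin subunit, had the smallest, 0.31 (SE 0.32), and its groups overlapped. On the TPIN arrays the mean of the 8 subunits was 9.31, 9.56 and 9.82, so here array 3 and not array 2 was the highest, and on the TNE arrays it was 10.25, 10.45 and 10.06.

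The other cell division cycle associated genes all rose, by 5.11- to 6.06-fold. Cdca5 encodes sororin, which keeps sister chromatids together, and was at 9.95, 10.45 and 9.66 in TNE and 7.20, 8.49 and 6.56 in TPIN. Cdca2 recruits a phosphatase to chromatin at the end of mitosis, Cdca3 is linked to mitotic entry, and Cdca7 acts with a chromatin remodeller. Their differences were 2.37 (SE 0.47), 2.35 (SE 0.47) and 2.36 (SE 0.48). Cdca2 was not called without TPIN array 1 (limma adjusted p = 0.0527), and Cdca7 was not called without TNE array 2 (limma adjusted p = 0.0566).

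Top2a, the topoisomerase that untangles sister chromatids, and Mki67, whose protein coats mitotic chromosomes and is the usual marker of proliferation, were among the members with differences near 3. Top2a had 11.87, 12.40 and 12.67 in TNE and 8.22, 10.38 and 8.92 in TPIN (8.80-fold, limma adjusted p = 0.00802). Mki67 had 11.46, 12.06 and 12.30 in TNE and 8.72, 10.65 and 7.56 in TPIN (SE 0.71, limma adjusted p = 0.0257), a call that ended without TNE array 2, TNE array 3 or TPIN array 1 (limma adjusted p = 0.0658 to 0.0884). For both genes TPIN array 2 was the highest of its group and below every TNE array.

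**Figure D4:**
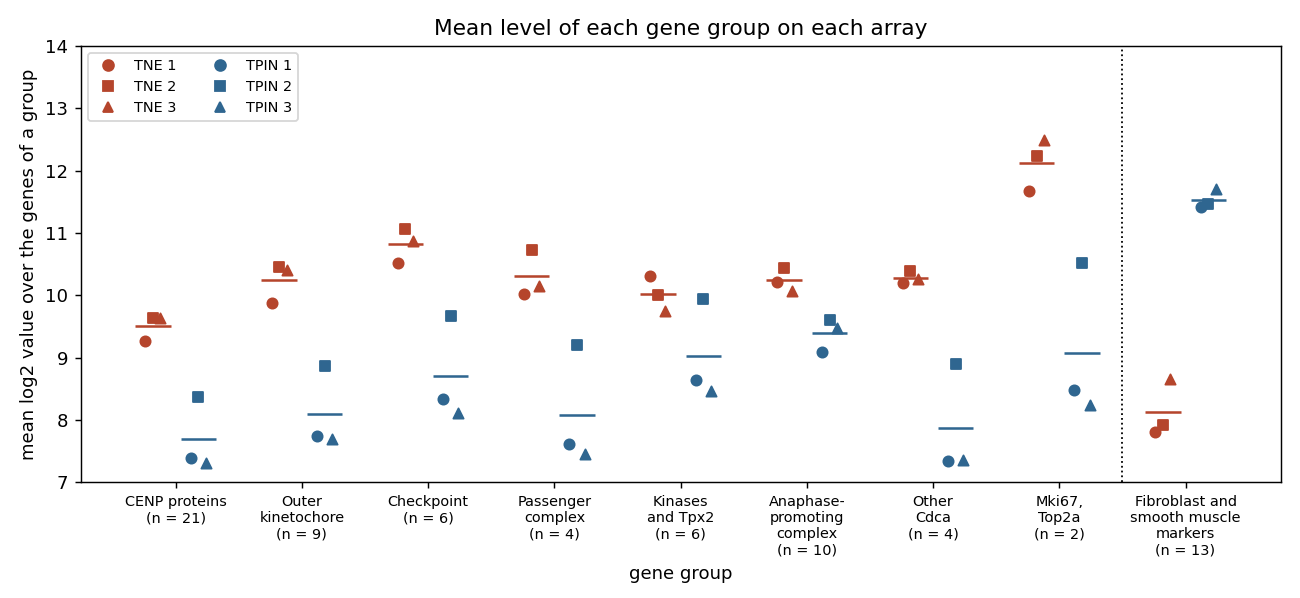
Mean log2 value of each gene group on each array (TNE left in red, TPIN right in blue, one symbol per array, lines at the group means), with the fibroblast and smooth muscle markers at the right. TPIN array 2 (blue squares) is highest of the TPIN arrays in all 8 member groups, and the fibroblast markers are lower on all TNE arrays.

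The members varied more among TPIN arrays than among TNE arrays. The median SD was 0.34 in TNE and 0.79 in TPIN over the members, against 0.33 in TNE and 0.39 in TPIN over all genes. The SD was larger in TPIN for 49 of 62 members and for 55.4% of all genes. TPIN array 2 was the highest TPIN array for 46 of the 62 members (30.2% of all genes) and exceeded the next TPIN array by more than 1 for 34 of them (3.7% of all genes). For the 88 genes that work beside the members, described below, these counts were 74 and 44. The SD was larger in TPIN for 73 of those 88. Among TNE arrays the values were closer, and array 1 was the lowest for 40 members (28.5% of all genes).

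Of the 41 calls of higher expression, 19 held without any 1 array. The number that rose was 20 without TNE replicate 2, 27 without TNE replicate 3 and 20 without TPIN replicate 1. In those fits 3.76%, 7% and 4.07% of all genes rose. It was 38, 42 and 36 without TNE replicate 1, TPIN replicate 2 and TPIN replicate 3, when 7.78%, 5.66% and 13.8% of all genes rose. The median difference stayed between 1.64 and 2.40, and 59 of 62 differences were positive each time.

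**Figure D5:**
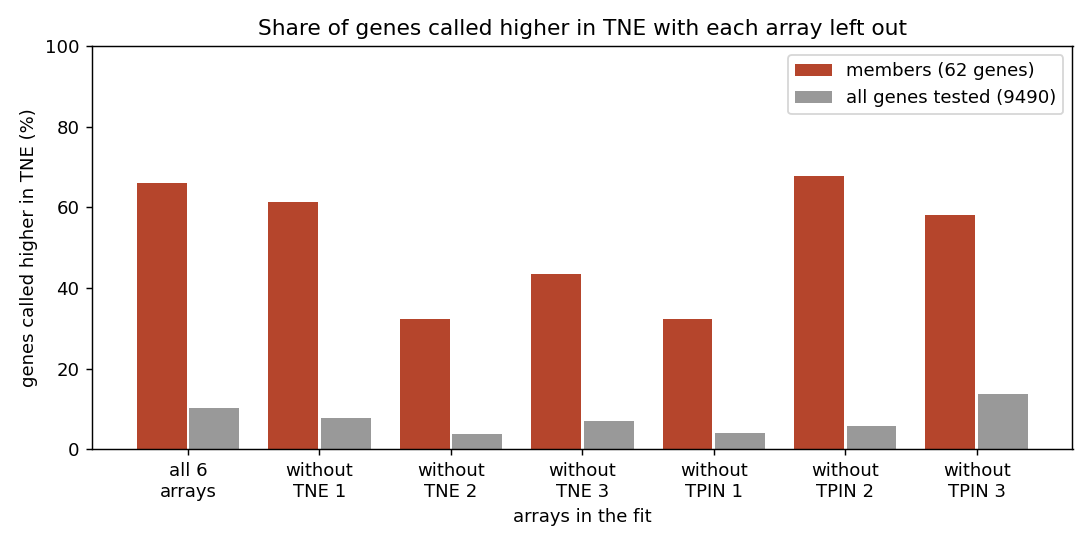
Share of genes called higher in TNE (y axis, %) with all 6 arrays and with each array left out, for the 62 members (red) and for all 9490 genes (grey). The members' share ranges from 32.3% to 67.7% and is above that of all genes in each fit.

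Genes that work beside these members were examined as 6 lists of 88 measured genes, of which 63 rose, none fell in limma (1 had an unadjusted p under 0.05 with a negative difference) and 25 did not pass. Of the 63 rises 29 held without any 1 array, those of the genes named here with a fold among them. Among other centromere and kinetochore genes 10 of 11 rose: Dsn1, of the MIS12 complex, Mis18a, which helps to load CENP-A, and Kntc1, of the complex that recruits dynein, were 5.63-fold, 5.97-fold and 12.1-fold higher. Among other regulators of the checkpoint and the anaphase-promoting complex 4 of 7 rose. These included Fbxo5, the inhibitor EMI1 (12.4-fold), Trip13, an ATPase that disassembles the checkpoint complex (5.53-fold), and Espl1, which encodes separase (3.91-fold). Pttg1, which encodes securin, the inhibitor of separase, was chosen after its values were seen: it had 8.98, 8.07 and 7.63 in TNE and 9.31, 9.49 and 9.25 in TPIN and did not pass (difference -1.12, SE 0.38, limma adjusted p = 0.069). Pttg1 passed without TNE array 1 (difference -1.50, limma adjusted p = 0.0219). With TNE array 3 left out instead, its difference was -0.82 (limma adjusted p = 0.154).

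Cohesin and condensin, the ring complexes that hold sister chromatids together and compact them, rose in 14 of 20 genes. All condensin genes of the list rose. The genes that did not pass, Smc3, Stag2, Wapl, Pds5a, Pds5b and Sgo2a, are cohesin subunits or regulators and were named after their values were seen. The condensin subunits Ncapg2, Ncapd3 and Ncapg had the smallest p, at 12.7-fold, 4.73-fold and 8.75-fold. Of the spindle motors and midzone proteins 20 of 22 rose, by 4.02- to 9.64-fold. The smallest p belonged to Tacc3, which stabilises spindle microtubules, the cytokinesis kinase Cit and Racgap1, of the midzone complex, at 10.96 ± 0.25, 10.43 ± 0.44 and 11.98 ± 0.23 in TNE and 8.11 ± 0.72, 7.50 ± 0.69 and 8.99 ± 0.81 in TPIN.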

How the data were processed

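The deposited table holds log2 expression values that the authors made with RMA from single-colour arrays of biotin-labelled cDNA, per the submitters' processing notes and the labels' protocols. It has 10361 rows, fewer than the whole array, and how they were selected is not stated. No detection call accompanies the values, so that dim genes cannot be called absent, and the number of arrays limits the precision. Rows with 1 gene symbol in the array's annotation (9496) gave 9490 genes, with the brightest row kept for 6 genes with several rows. No 2 arrays held duplicate data (at most 0.106% identical values in a pair).

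Groups came from the titles and the cell type labels; the description field names intraepithelial neoplasia for all 6 samples. Each title carries a number code of its own that the labels do not explain, and no label ties replicates to separate mice or cultures, so they may be technical and p-values then measure only the spread between these arrays; replicate numbers follow the order of the series. TNE and TPIN were tested over all genes (limma 3.58.1, R 4.3.3), after the fit had been tested on simulated data, with two-sided p-values adjusted by Benjamini and Hochberg and a threshold of 0.05. Alternatives left out each array, repeated quantile normalization, centred arrays on their medians, left out the dimmest 25% of genes, used an intensity trend, or averaged rows of a symbol. Genes named are all members and, in each list of partner genes, up to 3 genes of smallest p per direction. Of each marker list they are those of highest mean or smallest p. Sox2 and Aldh1a1 met neither rule and complete the measured stem-like cell markers. Other genes are marked. The members and all lists and motifs were chosen with earlier results of these data known.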

Additional observations from a re-analysis of the deposited data

How the results depend on the processing

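With repeated quantile normalization, median centring, the dimmest 25% of genes left out, an intensity trend or averaged rows, the number of members that rose was 38 to 43, 1 fell, and the counts over all genes and partner genes stayed within 1.5 times. Of all genes in these fits 10.3% to 12.2% rose and 9.86% to 12.1% fell. With the dimmest genes left out 57 members were in the fit, of which 38 rose. No member changed direction in any of the 11 alternatives that gave it a value. Leaving out an array moved counts more: over all genes the calls ranged from 832 (TNE replicate 2 left out) to 2596 (TPIN replicate 3 left out), and were 936 and 1115 when TPIN replicate 1 or TPIN replicate 2 was left out. The members that rose ranged from 20 to 42 and those that fell from 0 to 2, against 41 and 1. Of all genes 3.76% to 13.8% rose and 5.01% to 13.5% fell with an array left out. The partner genes that rose ranged from 29 (TNE replicate 2 left out) to 62, and were 31 when TPIN replicate 1 and 41 when TNE replicate 3 was left out; those that fell ranged from 0 to 1. The median difference of the members ranged from 1.64 to 2.40. Fewer samples enter each such fit. Calls over all genes were 1941 with all arrays and 2596 without TPIN replicate 3, and the cause of these changes was not tested. No paired analysis was possible because the labels give no replicate number that the groups share. RMA narrows differences near background, and the values come with no background level, so folds of dim genes may be understated.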

Other observations

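Regulators of mitotic transcription and of mitotic entry were measured beside the members. Of 15 transcription regulators of the cell cycle 7 rose and none fell in limma, nor did any have a negative difference at an unadjusted p under 0.05: Myb, a transcription factor of progenitor cells, was 13.8-fold higher, and Lin9 and Mybl2, which belong to the MuvB complexes, were 4.71-fold and 4.15-fold higher. Lin54, the MuvB subunit that contacts CHR elements, was chosen after its values were seen and rose by 1.32 (SE 0.32, limma adjusted p = 0.0263), a call that ended without TNE array 1, TNE array 2, TNE array 3 or TPIN array 1 (limma adjusted p = 0.0541 to 0.0868). Foxm1, the transcription factor of G2 and mitotic genes, also chosen after its values were seen, had 9.77, 10.01 and 10.32 in TNE and 7.98, 9.78 and 7.20 in TPIN and did not pass (limma adjusted p = 0.0787), TPIN array 2 being the highest of its group. Foxm1 passed without TPIN array 2 (difference 2.45, limma adjusted p = 0.00917). With TPIN array 3 left out instead, its difference was 1.16 (limma adjusted p = 0.157).

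Of 13 mitotic cyclin and entry genes 8 rose and none fell in limma, and the smallest p belonged to the centrosomal kinase Nek2 (8.75-fold), the mitotic kinase Pbk (12.4-fold) and the CDK1-activating phosphatase Cdc25c (8.04-fold). Cdk1 and Ccnb2, the kinase of mitosis and a cyclin that binds it, were chosen after their values were seen and did not pass: Cdk1 had 10.64, 10.95 and 10.98 in TNE and 9.46, 10.82 and 8.21 in TPIN, and Ccnb2 had 10.86, 11.09 and 10.10 in TNE and 8.92, 11.06 and 7.73 in TPIN. For both, TPIN array 2 reached the level of the TNE arrays. Cdk1 passed without TPIN array 2 (difference 2.02, limma adjusted p = 0.0303), and Ccnb2 passed without TPIN array 2 (difference 2.36, limma adjusted p = 0.0261). The difference of Ccnb2 was 1.45 with all arrays and 0.70 without TPIN array 3, and that of Cdk1 was 1.36 with all arrays and 0.72 without TPIN array 3. The E2F letters searched in the promoter windows (TTTCCCGC, TTTGGCGC or TTTCGCGC on either strand) occurred in 6 of 55 member genes (10.9%) and in 4.3% of tested genes.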
